A study of Mus musculus with 40 samples.

Results

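The 35 genes described here are genes of macrophages, measured by RNA sequencing in brown adipose tissue (BAT) of mice. They were chosen by symbol, because a shorter list of such genes had lower levels after CL-316,243 (CL) on high fat diet (HFD) in these same libraries. All 35 were found, each once, among the 20295 genes of the count table, and 34 of them passed the filter on low counts. The exception was Ccl3, with 88 counts over all 40 libraries. The study asked how brown fat that is activated by the receptor GPR3 compares with brown fat activated through the β3-adrenergic receptor, on chow and on HFD.

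Each of the 8 groups held 5 mice, all male and housed at 29 °C. In the first cohort, aged 13 to 19 weeks, C-3BO mice carried a Gpr3 transgene that a Ucp1-Cre driver switched on in brown and beige adipocytes from early life, and the littermate controls lacked either the Cre or the transgene. In the second cohort, aged 15 weeks and labelled wildtype, the mice were control littermates of a tamoxifen-inducible line (I-3BO) and carried either the Gpr3 transgene or the Ucp1-CreERT2 driver alone. They were injected daily for 9 days with saline (10 µL/g) or with the β3-adrenergic agonist CL (1 mg/kg). Both cohorts were fed chow or were moved to HFD (60 kcal% fat) for 7 days, and the injections began 2 days before that change. The Cre driver is active in adipocytes and the whole depot was sequenced, so the cells that gave the reads of each gene are not known from these data. In bulk tissue, fewer macrophages and less RNA of these genes per macrophage cannot be told apart.

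Macrophages of adipose tissue come from resident cells and from monocytes that enter from blood. They take up debris and lipid in lysosomes, tag targets with complement, sense immune complexes through Fc receptors and present peptides to T cells. In brown fat they are known to lie among adipocytes, capillaries and sympathetic nerve fibres. The lineage depends on the transcription factor PU.1, the product of Spi1, and on the growth factor receptor CSF1R.

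Library totals ranged from 849126 to 15260516 counts. Gpr3 read 266 to 918 CPM (counts per 1e6 counts of the library, scaled by TMM factors) in the 10 C-3BO libraries and at most 1.18 CPM in the other libraries, with the exception of chow CL replicate 3 at 9.15 CPM. Ucp1, the uncoupling protein of brown fat, was present in every library, from 1116 to 15798 CPM. It rose with C-3BO on chow by 2.38 on the log2 scale and with CL on chow by 1.90. In chow CL replicate 5 it read 1644 CPM, within the saline range. In 12 libraries, all 10 of HFD saline and HFD CL and replicates 4 and 5 of HFD C-3BO, the liver transcript Alb read above 2 CPM (62.2 to 294 CPM). The same 12 held the epididymis transcript Lcn8, at 6 to 191 counts, which had 0 counts in every other library. They also had the lowest totals, 849126 to 7284129 counts, where the other libraries had at least 7349348. HFD and these properties cannot be told apart in the injected cohort. Muscle genes, summed over 6, averaged 4994 CPM in chow controls and 48.1 CPM in HFD controls. The part of these other tissues and of library depth in the macrophage values was not tested.

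Promoters of the genes were searched for the PU box GAGGAA, which PU.1 can bind, on both strands. RefSeq promoter windows of 300 bases (250 before to 50 after the transcript start, build GRCm38.p6) were matched for 26 of the 35 genes. The motif was in 17 of these 26 genes (65.4%) and in 31.3% of 27025 genes with windows of the same length. The 250 bases before the start are shown for 3 genes that passed a test below and for Itgam, the integrin neighbour of Itgax, all on the plus strand and with GAGGAA or its reverse complement in capitals. Laptm5 (chr4:130913066-130913315), Ctss (chr3:95526536-95526785) and Itgam (chr7:128062390-128062639) each held a match there. Itgax (chr7:128129300-128129549), which encodes CD11c, held none.
Laptm5: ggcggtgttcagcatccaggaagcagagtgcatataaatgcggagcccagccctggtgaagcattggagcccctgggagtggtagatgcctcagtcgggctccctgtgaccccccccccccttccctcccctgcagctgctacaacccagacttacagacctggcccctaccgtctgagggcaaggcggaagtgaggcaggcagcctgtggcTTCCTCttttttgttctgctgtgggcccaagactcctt
Ctss: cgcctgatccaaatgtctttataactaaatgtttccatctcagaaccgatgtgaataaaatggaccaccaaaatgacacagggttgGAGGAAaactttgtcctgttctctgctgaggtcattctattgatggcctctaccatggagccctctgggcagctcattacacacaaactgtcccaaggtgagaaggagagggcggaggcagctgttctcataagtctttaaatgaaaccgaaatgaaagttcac
Itgam: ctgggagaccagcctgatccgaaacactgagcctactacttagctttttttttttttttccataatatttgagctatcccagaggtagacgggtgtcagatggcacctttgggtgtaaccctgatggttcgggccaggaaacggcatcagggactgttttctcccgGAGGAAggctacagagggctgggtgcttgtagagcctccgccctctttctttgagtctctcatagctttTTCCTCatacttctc
Itgax: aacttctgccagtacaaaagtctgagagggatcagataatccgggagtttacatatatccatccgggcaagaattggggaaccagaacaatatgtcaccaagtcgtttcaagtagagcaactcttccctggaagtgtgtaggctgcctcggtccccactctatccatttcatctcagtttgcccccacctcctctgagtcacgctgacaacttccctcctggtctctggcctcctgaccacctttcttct
The counts themselves use build mm9, in which Itgax lies on chromosome 7 at 135273082 to 135294171 and Itgam beside it at 135206154 to 135262005.

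Per kilobase of counted exon, lysozyme M (Lyz2) was the most abundant of the 35, at 84.8 CPM per kb over all mice. The 3 chains of complement C1q followed, C1qa at 31.9, C1qb at 31.8 and C1qc at 27.5 CPM per kb. The carbohydrate-binding protein galectin-3 (Lgals3) and the lysosomal protease cathepsin S (Ctss) came next, at 15.2 and 14.4 CPM per kb. At the low end were the scavenger receptor Msr1 at 0.737, Itgax at 0.584 and the chemokine Ccl3 at 0.332 CPM per kb. Lyz2 has a near-identical neighbour, Lyz1, so its counts may hold reads of both.

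Summed over the 35 genes, the level was highest in HFD saline mice. Chow controls read 350, 349, 551, 390 and 344 CPM in replicates 1 to 5, and chow C-3BO mice 255, 279, 523, 299 and 226 CPM. HFD controls read 534, 523, 331, 249 and 566 CPM, and HFD C-3BO mice 283, 294, 283, 273 and 245 CPM. The ranges overlapped in both pairs, and the HFD C-3BO mice lay in the narrowest band, with an SD of 18.9 around 276 CPM against 141 around 441 CPM in their controls. In the injected cohort, chow saline mice read 365, 678, 721, 327 and 328 CPM, and chow CL mice 322, 283, 738, 345 and 376 CPM. HFD saline mice read 1160, 1081, 745, 1693 and 777 CPM, and HFD CL mice 315, 598, 559, 516 and 994 CPM. The HFD saline mice stood above all chow mice, and 4 of 5 HFD CL mice stood below the lowest of them. The highest value of all belonged to HFD saline replicate 4, which has the smallest library.

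**Figure D1:**
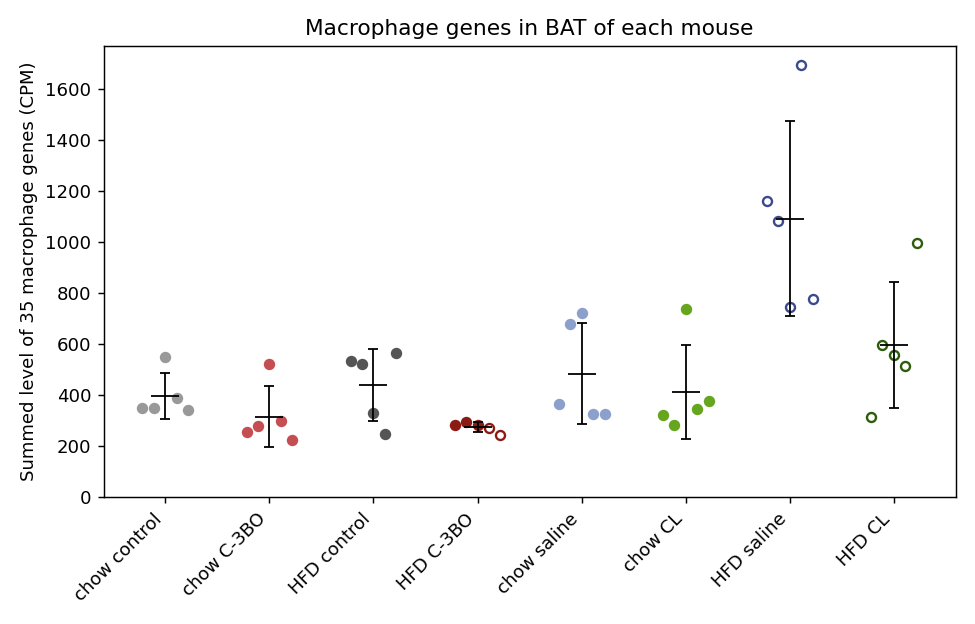
Summed level of the 35 macrophage genes (CPM, y axis) in each mouse by group (x axis). Points are mice, open points are the 12 libraries with Alb above 2 CPM, and bars are the mean ± SD (n = 5); HFD saline mice, at 745 to 1693 CPM, lie above every chow mouse.

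In several groups the genes moved together by mouse. Replicate 3 was the highest of its group for 25 of the 35 genes in chow controls, 25 in chow C-3BO mice and 30 in chow CL mice. In HFD C-3BO mice the highest place was spread, at 9, 8, 7, 6 and 5 genes for replicates 1 to 5. HFD control replicate 4 was the lowest of its group for 27 genes. That mouse had the highest Ucp1 of the HFD controls, 9442 CPM against 2573 to 5255 CPM in the others. The mouse with the highest sum was also the highest of its group for 6 summed fibroblast genes in 4 of the 8 groups, and for 20 other macrophage genes in 5 of 8. Fibroblast genes averaged 3014 CPM in HFD saline and 1790 CPM in HFD CL mice. Their part in the macrophage values was not tested.

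**Figure D2:**
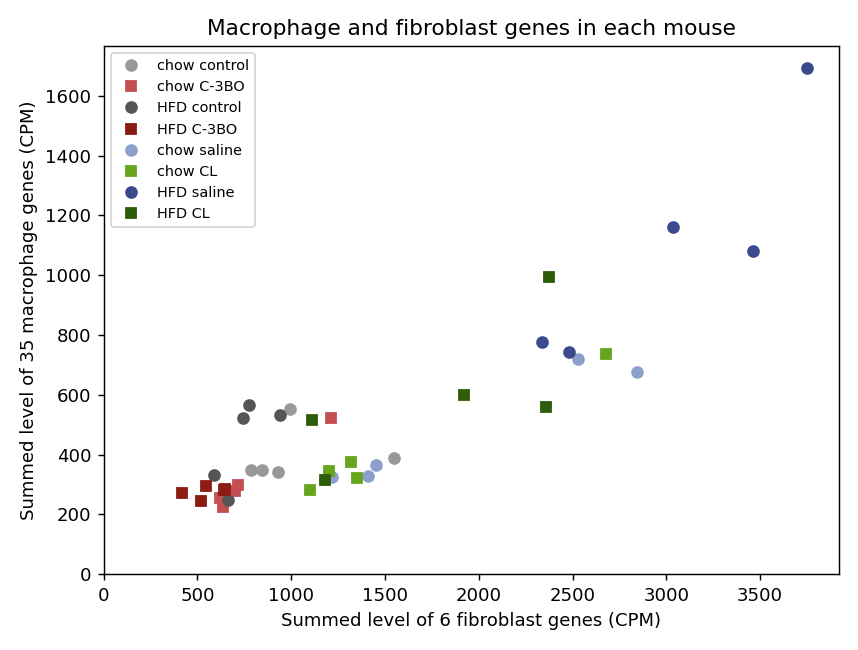
Summed level of the 35 macrophage genes (CPM, y axis) against that of 6 fibroblast genes (CPM, x axis), 1 point per mouse, coloured by group. HFD saline has the highest group means on both axes, 1091 and 3014 CPM, and single mice of other groups overlap its range.

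CL against saline on HFD is the comparison in which the genes were first noticed, so its values are a description without a test. The summed level in HFD CL mice was 0.547 times that in HFD saline mice, and for the fibroblast genes the ratio was 0.594. Of the 34 genes 33 had a lower mean, with a median log2 fold change of -0.81, beside -0.01 over all 13277 genes tested. Itgax differed most, by -1.51, with 5.37, 4.56, 4.37, 13.03 and 2.86 CPM in saline mice and 1.18, 1.02, 2.04, 1.16 and 3.81 CPM in CL mice. These ranges overlapped through CL replicate 5. Trem2, a lipid-sensing receptor, differed by -1.35, and Cd68, a lysosomal membrane protein, by -1.25. Cx3cr1, the fractalkine receptor, was the exception, at 4.75 CPM with saline and 4.99 CPM with CL. By the call used for the tests below (adjusted p under 0.05), 11 of the 34 would be lower, where 10.8% of all genes were. The list was chosen because such genes were lower in this comparison, in these same libraries. A count above the share of all genes is thus built into the choice, and nothing is read from it. Both groups consist of libraries with liver transcripts.

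HFD against chow in the injected cohort is given as levels only, since diet and the library properties above cannot be told apart. In saline mice the summed level on HFD was 2.26 times that on chow. The largest difference was in Trem2, which read 0.648, 2.23, 3.04, 0.812 and 1.19 CPM on chow and 7.58, 12.6, 6.55, 23.1 and 4.29 CPM on HFD. The lowest HFD saline mouse for Trem2 read 4.29 CPM and the highest chow saline mouse 3.04 CPM. The share of all genes separated in this way is not given here, so nothing is read from it. Gpnmb, a glycoprotein of lysosomes, averaged 7.90 CPM on chow and 35.5 CPM on HFD, and Lgals3 averaged 16.7 and 70.4 CPM. Trem2, Gpnmb and Lgals3 are known as genes of lipid-laden macrophages, and whether such cells were more common here was not tested. Cd14, the co-receptor for lipopolysaccharide, went the other way, with 15.1 ± 3.25 CPM on chow and 8.71 ± 3.11 CPM on HFD (SD, n = 5). Cx3cr1 read 6.08 ± 2.29 and 4.75 ± 2.42 CPM. In CL mice the summed ratio of HFD to chow was 1.45, with Gpnmb (6.3 and 23.2 CPM), Ccl2 (0.549 and 2.08 CPM) and Itgax (0.63 and 1.84 CPM) furthest apart, and Cd14 alone lower on HFD.

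CL against saline on chow used mice that did not enter the comparison that chose the genes. Itgax and Cd14 fell, 2 of 34 genes, where 6.13% of all 13277 genes tested were lower. No gene rose, where 9.16% of all genes did. At an unadjusted p under 0.05 the counts were 4 lower and 0 higher, and DESeq2 called 2 lower and 0 higher. These 2 of 34 are near the share among all genes and are no result about the set. The median log2 fold change of the 34 was -0.26, with 29 below 0, and that of all genes tested was -0.01, with 50.8% below 0.

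The CD11c gene Itgax read 1.73, 2.12, 3.84, 0.913 and 1.36 CPM in chow saline mice. In chow CL mice it read 0.885, 0.830, 0.369, 0.288 and 0.777 CPM. Every CL mouse lay below every saline mouse, although the lowest saline mouse was close to the highest CL mouse. The log2 fold change was -1.68 (SE 0.50, edgeR quasi-likelihood test, adjusted p = 0.0184), on 4 to 9 counts in each CL library. Non-overlapping groups with the lower values in CL mice were found for 3.52% of all genes. Without chow saline replicate 3 the adjusted p (edgeR) was 0.0984, and without chow CL replicate 4 it was 0.0671.

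Cd14 read 12.6, 14.9, 12.7, 14.5 and 20.6 CPM with saline and 6.88, 6.64, 14.2, 8.22 and 9.32 CPM with CL on chow. Chow CL replicate 3 reached the saline range and the other CL mice lay below it. The log2 fold change was -0.73 (SE 0.22, edgeR adjusted p = 0.0174). The edgeR adjusted p was 0.0636 without chow saline replicate 5, 0.0589 without chow CL replicate 1 and 0.0588 without chow CL replicate 2. The 3 C1q genes had log2 fold changes between -0.24 and -0.09, and the Fc receptor and adaptor genes between -0.36 and -0.07, with no call. Csf1r differed by -0.47 (SE 0.24, edgeR adjusted p = 0.193), and by -0.81 without chow CL replicate 3 (edgeR adjusted p = 0.0178). Spi1 (-0.43), Cd68 (-0.66), Ccr2 (-0.53), Ccl2 (-1.08), Ptprc (-0.17), Trem2 (-0.17), Lyz2 (-0.03), Mrc1 (-0.01) and Cd163 (0.16) did not pass.

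C-3BO against control on chow gave 1 call. Itgax fell, 1 of 34 genes, where 15.9% of all genes were lower, and no gene rose, where 15.8% of all genes did. The unadjusted counts were 6 lower and 0 higher, and DESeq2 called 2 lower and 0 higher. The set thus held fewer calls than its share among all genes. Its median log2 fold change was -0.35, with 31 of 34 below 0, beside -0.03 over all genes, with 53.2% below 0.

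Itgax read 2.97, 2.23, 4.03, 1.18 and 1.46 CPM in chow controls and 0.603, 0.579, 0.119, 1.33 and 0.859 CPM in chow C-3BO mice. The groups overlapped through C-3BO replicate 4. The log2 fold change was -1.73 (SE 0.51, edgeR adjusted p = 0.00855), and it passed when each of the 10 mice was left out in turn (adjusted p from 0.00498 to 0.0349). The 1 gene whose groups did not overlap was Aif1, which encodes the scaffold protein IBA1, with 1.72 to 2.57 CPM in controls and 0.151 to 1.33 CPM in C-3BO mice. It did not pass the test, it was chosen after its values were seen, and non-overlap with lower values in C-3BO mice was found for 8.02% of all genes. Among the other genes, Ccl2, a ligand that draws monocytes, differed by -1.53 (SE 0.71, edgeR adjusted p = 0.0991) and Spi1 by -0.68 (SE 0.32, adjusted p = 0.0955). Cd68 (-0.40), Lyz2 (-0.20), Csf1r (-0.25), C1qa (-0.37), Ptprc (-0.46), Trem2 (-0.38), Ccr2 (-0.43), Mrc1 (-0.04) and Cd163 (0.17) did not pass. Without chow C-3BO replicate 3, the mouse with the highest summed level of its group, 5 genes passed. Without chow control replicate 4 or 5 there were 2. The shares of all genes in these fits are not given, so the counts are no result about the set.

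The effects of C-3BO and CL on Itgax on chow were close. The difference between them was -0.05 on the log2 scale (SE 0.79, edgeR adjusted p = 0.989), and this SE leaves room for a difference in either direction. Over the 34 genes no difference between the C-3BO and CL effects on chow passed in either direction, where 3.4% of all genes were lower and 2.83% higher. No gene had an unadjusted p under 0.05, and DESeq2 called none. The 12 genes followed throughout ranged from -0.44 to 0.26 in that difference, and the lowest adjusted p of the set was 0.261 (edgeR, Cd14). The C-3BO mice carried their transgene from early life and the CL mice were injected for 9 days, so the exposures differ.

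**Figure D3:**
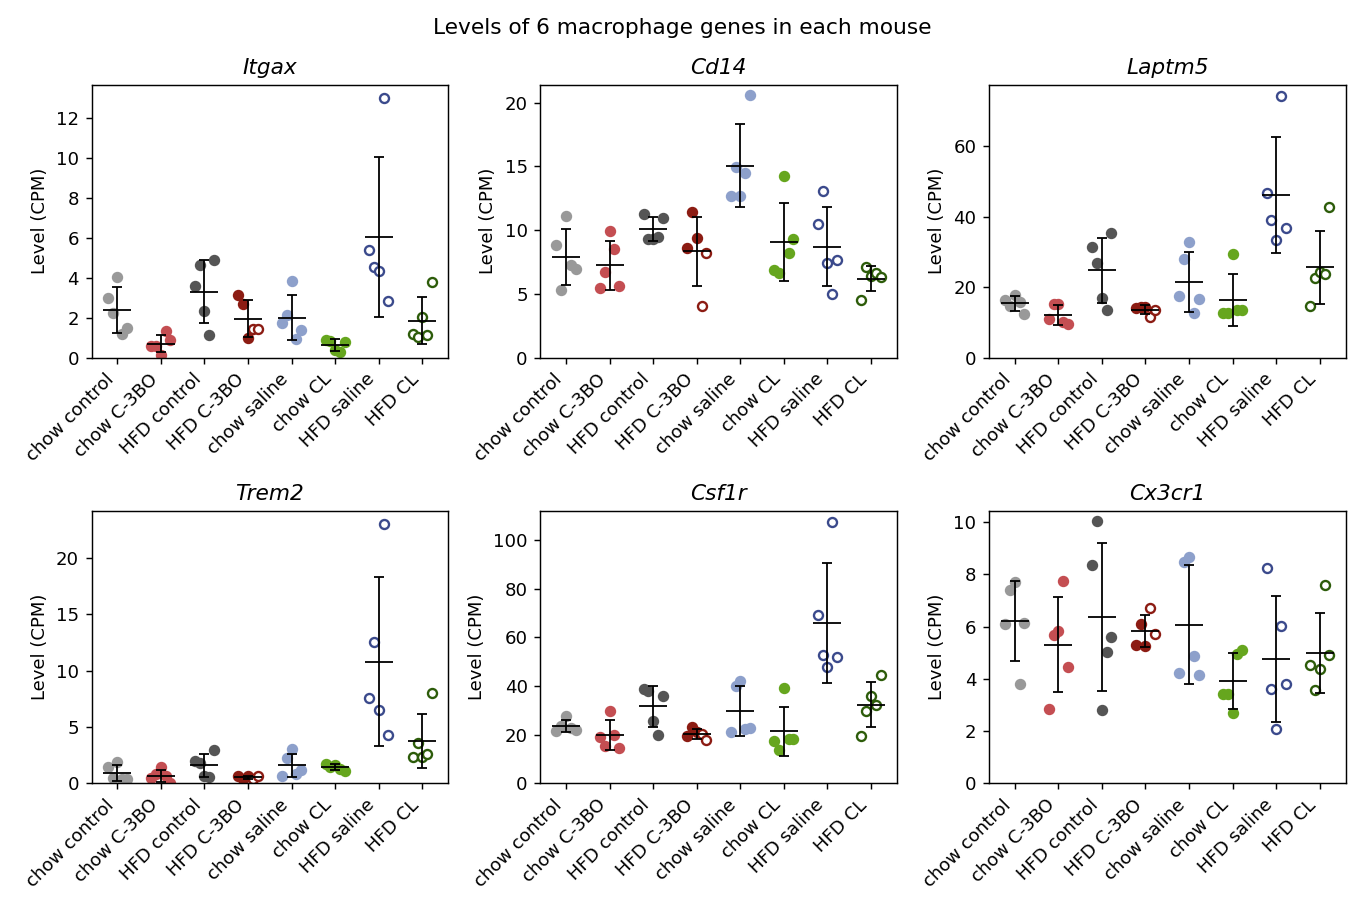
Levels (CPM, y axes) of Itgax, Cd14, Laptm5, Trem2, Csf1r and Cx3cr1 in each mouse by group (x axes). Points are mice, open points are the 12 libraries with Alb above 2 CPM, and bars are the mean ± SD (n = 5); Itgax averaged 0.698 CPM in chow C-3BO and 0.630 CPM in chow CL mice, the lowest of the 8 groups.

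C-3BO against control on HFD gave the most calls of the tested comparisons. Laptm5, Spi1, Ctss, Msr1, Clec7a, Ccr2 and Csf1r fell, 7 of 34 genes, where 15.5% of all genes were lower. No gene rose, where 19.3% of all genes did. The 7 of 34 are not far from the share among all genes and are no result about the set. Of the 7, Ctss, Msr1 and Clec7a also fell by more than 1 on the log2 scale, as 3.1% of all genes did. The unadjusted counts were 12 lower and 0 higher, and DESeq2 called 8 lower and 0 higher. The median log2 fold change was -0.63, with 33 of 34 below 0, beside -0.02 over all genes, with 51.6% below 0.

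These calls depend on which mice are used. Without replicates 4 and 5 of HFD C-3BO, the libraries with liver transcripts, none of the 34 passed, where 10.4% of all genes were lower, and the median was -0.63. The count was 2 without HFD control replicate 1, 3 without replicate 2, 10 without replicate 3, 12 without replicate 4 and 1 without replicate 5. It was 4, 3, 3, 3 and 2 without HFD C-3BO replicates 1 to 5 in turn. The shares of all genes with 1 mouse left out are not given, so these counts are no result about the set. The low HFD controls, replicates 3 and 4, were those with the highest Ucp1, 5255 and 9442 CPM. Replicate 5 came next for Ucp1, at 4544 CPM, and had the highest summed level of the group, 566 CPM. The part of these values in the calls was not tested.

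Laptm5, a lysosomal membrane protein of blood cells, read 31.4, 26.8, 16.9, 13.5 and 35.3 CPM in HFD controls and 14.1, 14.3, 14.4, 11.4 and 13.5 CPM in HFD C-3BO mice. It fell by 0.85 on the log2 scale (SE 0.27, edgeR adjusted p = 0.0141; -0.78 and 0.0733 without HFD C-3BO replicates 4 and 5). HFD control replicate 4 lay within the C-3BO range and the other controls above it.

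Spi1 read 4.46, 5.51, 2.61, 2.81 and 7.87 CPM in controls and 3.13, 2.26, 2.20, 1.63 and 2.05 CPM in C-3BO mice on HFD. It fell by 0.99 on the log2 scale (SE 0.34, edgeR adjusted p = 0.0216), with control replicates 3 and 4 below the highest C-3BO mouse. Csf1r read 38.7, 38.0, 25.5, 20.03 and 35.8 CPM in controls and 19.4, 23.3, 21.0, 20.4 and 17.8 CPM in C-3BO mice. Only control replicate 4 lay among the C-3BO mice. Its log2 fold change was -0.62 (SE 0.25, edgeR adjusted p = 0.0489).

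Ctss read 24.7, 20.2, 12.8, 8.87 and 30.3 CPM in controls and 8.84, 9.59, 7.34, 9.58 and 6.96 CPM in C-3BO mice, again with control replicate 4 inside the C-3BO range. Its log2 fold change was -1.18 (SE 0.42, edgeR adjusted p = 0.0255). Cd68 (-0.75, SE 0.37, edgeR adjusted p = 0.115) and Lyz2 (-0.79, SE 0.33, adjusted p = 0.0604) did not pass, nor did Mpeg1 (-0.82) or Gpnmb (-0.17). Lyz2 passed when HFD control replicate 3 or 4 was left out (edgeR adjusted p = 0.0452 and 0.0252).

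Among receptors, Clec7a, which binds fungal β-glucan, averaged 5.07 CPM in controls and 2.19 CPM in C-3BO mice on HFD, a log2 fold change of -1.18 (SE 0.45, edgeR adjusted p = 0.0388). Ccr2, the receptor for CCL2 on monocytes, read 21.1, 22.2, 9.68, 7.54 and 9.18 CPM in controls and 9.38, 5.19, 8.93, 6.32 and 7.58 CPM in C-3BO mice. Control replicates 1 and 2 stood well above all other mice of the pair. Its log2 fold change was -0.90 (SE 0.35, edgeR adjusted p = 0.0404), and it was -0.70 without control replicate 1 (adjusted p = 0.144).

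Msr1 was the 1 gene whose groups did not overlap on HFD, a pattern with lower values in C-3BO mice in 9.43% of all genes. It rested on 7 counts over the 5 C-3BO libraries, 1 or 2 in each, and 43 counts over the controls. The ratio of C-3BO to control was 0.2935, with a 95% exact interval from 0.111 to 0.658 that covers counting error only. Trem2 read 2.02, 1.78, 0.687, 0.517 and 2.98 CPM in controls and 0.680, 0.339, 0.612, 0.407 and 0.614 CPM in C-3BO mice. It missed the threshold, with a log2 fold change of -1.52 (SE 0.62, edgeR adjusted p = 0.0514; 0.0227 without HFD control replicate 4). The scavenger receptors Mrc1 (-0.32) and Cd163 (-0.31), which mark resident macrophages, C1qa (-0.53), Ptprc (-0.56), Itgax (-0.72) and Ccl2 (-0.50) did not pass.

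**Figure D4:**
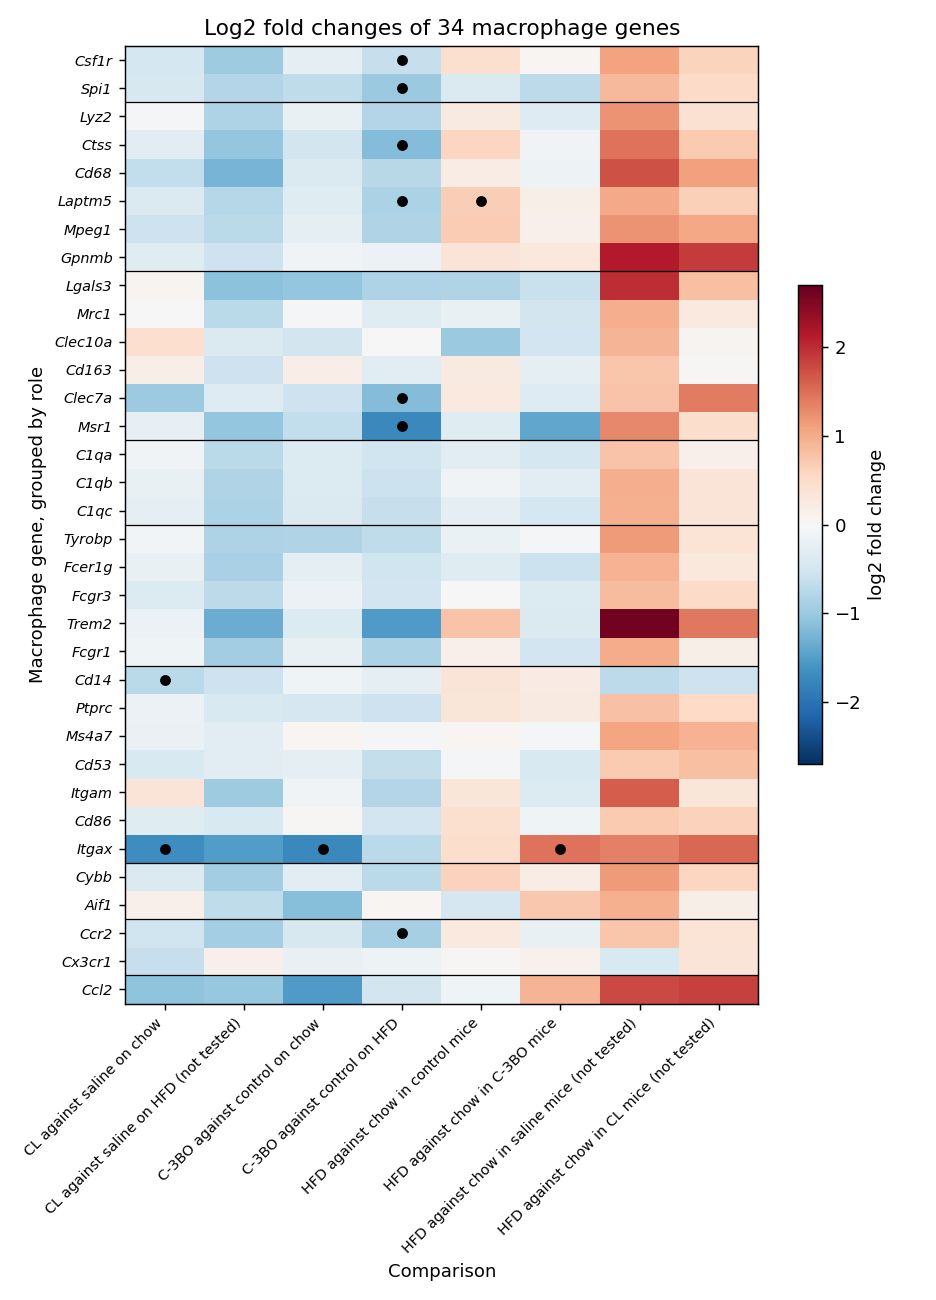
Log2 fold changes (colour) of the 34 macrophage genes that passed the filter on low counts (y axis, grouped by role) in 8 comparisons (x axis). Black points mark genes with an edgeR adjusted p under 0.05, 7 of them lower with C-3BO on HFD; the 3 columns named as not tested are descriptions.

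The C-3BO effect on HFD was not shown to differ from that on chow for any of the 34 genes, where 0.731% of all genes were lower and 1.36% higher in this difference. No gene had an unadjusted p under 0.05, DESeq2 called none, and the lowest edgeR adjusted p was 0.448 (Aif1). For Itgax the difference was 1.01 (SE 0.68, edgeR adjusted p = 0.514). The 12 genes followed throughout ranged from -1.15 to 1.03.

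HFD against chow within the first cohort moved few of the genes. In controls Laptm5 rose, 1 of 34, where 15.4% of all genes did, and none fell, where 17.5% did. By unadjusted p 3 were higher and 1 lower, and DESeq2 called 1 higher and 0 lower. Laptm5 averaged 15.4 CPM on chow and 24.8 CPM on HFD, a log2 fold change of 0.67 (SE 0.26, edgeR adjusted p = 0.0473). This call held without HFD control replicate 3 or 4 and was lost when any other of the 10 mice was left out (adjusted p up to 0.168). Csf1r (0.42), Cd68 (0.21), Lyz2 (0.24), Cd163 (0.25), Ptprc (0.33), Itgax (0.47), Trem2 (0.76), Ccr2 (0.27), Mrc1 (-0.21), C1qa (-0.31), Spi1 (-0.39) and Ccl2 (-0.12) did not pass. The median of the 34 was 0.17, with 14 below 0, beside 0.00 and 50% over all genes.

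In C-3BO mice Itgax rose on HFD, 1 of 34, where 13.5% of all genes did, and none fell, where 12.2% did. By unadjusted p 1 was higher and 0 lower, as by DESeq2. It read 3.13, 2.71, 0.978, 1.43 and 1.43 CPM on HFD beside the chow values given above, a log2 fold change of 1.47 (SE 0.53, edgeR adjusted p = 0.0372). The call was lost without chow C-3BO replicate 1, 2 or 3 (adjusted p = 0.0673, 0.0761 and 0.120) and without HFD C-3BO replicate 1 or 2 (0.118 and 0.101). Spi1 (-0.70), Mrc1 (-0.49), C1qa (-0.47), Trem2 (-0.38), Lyz2 (-0.35), Cd163 (-0.24), Ccr2 (-0.20), Cd68 (-0.15), Csf1r (0.05), Ptprc (0.23) and Ccl2 (0.91) did not pass. The median of the 34 was -0.22, beside 0.03 over all genes.

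Other genes of the macrophage pathway were counted from lists chosen with earlier results known. MHC class II genes, with which macrophages and dendritic cells present peptides, fell in 6 of 7 with C-3BO on HFD, where 15.5% of all genes were lower. H2-Aa averaged 91.7 ± 27.9 CPM in controls and 52.3 ± 3.95 CPM in C-3BO mice (SD, n = 5), a log2 fold change of -0.81 (SE 0.22, edgeR adjusted p = 0.00392). The others were H2-Ab1 (-0.86), H2-Eb1 (-0.76), H2-DMb1 (-0.99), Cd74 (-0.71) and the transcriptional activator Ciita (-1.10). Without HFD C-3BO replicates 4 and 5, H2-Aa, H2-Ab1, H2-Eb1 and Ciita passed, 4 of 7, and leaving out 1 mouse gave 5 to 7. With CL on chow 2 of 7 fell, H2-Aa (-0.62) and Cd74 (-0.63), where 6.13% of all genes were lower. That count was 0 without chow saline replicate 2 or 3 or without chow CL replicate 1, 2, 4 or 5, and 4 without chow CL replicate 3. With C-3BO on chow 0 of 7 passed.

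Among growth factors and recruiting ligands, Cx3cl1, the ligand of CX3CR1, fell in all 3 tested comparisons of an activator with its control. Its log2 fold change was -1.48 with C-3BO on HFD (SE 0.18, edgeR adjusted p = 4.03e-08), -0.99 with C-3BO on chow (SE 0.19, adjusted p = 0.000128) and -0.75 with CL on chow (SE 0.18, adjusted p = 0.00379). On HFD it averaged 35.7 ± 7.08 CPM in controls and 12.7 ± 2.15 CPM in C-3BO mice, and -1.42 remained without replicates 4 and 5 (edgeR adjusted p = 5.07e-06). The receptor gene Cx3cr1 differed by -0.13, -0.21 and -0.62 in the same 3 comparisons and did not pass. Il34, a ligand of CSF1R, fell with C-3BO on HFD (-0.55, edgeR adjusted p = 0.0164) and with CL on chow (-0.69, adjusted p = 0.0059). Csf1, the other ligand, fell with C-3BO on chow (-0.55, edgeR adjusted p = 0.0342). Cxcl12 rose with C-3BO on HFD (0.39, edgeR adjusted p = 0.0166) and on chow (0.77, adjusted p = 2.75e-05). Its HFD call was lost without replicates 4 and 5 of HFD C-3BO (0.357, edgeR adjusted p = 0.0663). Of the 12 ligands tested, 3 fell and 1 rose with C-3BO on HFD, 4 fell and 1 rose with C-3BO on chow, and 2 fell with CL on chow. Over all genes 15.5%, 15.9% and 6.13% were lower and 19.3%, 15.8% and 9.16% higher in these comparisons. Counts among 12 genes are too small to be read as a result about the list.

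Of 18 tested macrophage genes outside the 35, 6 fell and 2 rose with C-3BO on HFD, where 15.5% of all genes were lower and 19.3% higher. Among those that fell were Hcls1 (-0.92), Slc11a1 (-1.08), Irf8 (-1.06), Nckap1l (-0.82) and Tlr4 (-0.63), and Sirpa (0.62) and Ccr1 (1.56) rose. Without HFD C-3BO replicates 4 and 5 the count that fell was 3. Scaled by library totals, 10 fell and 0 rose, but that scaling moved the median of all genes from -0.02 to -0.19. The share of all genes called under it is not given here, so nothing is read from that count. Markers of other cells moved too with C-3BO on HFD, beside the same shares over all genes. Endothelial genes fell in 6 of 8 (4 without replicates 4 and 5), dendritic cell genes in 2 of 5 and fibroblast genes in 1 of 6. Neutrophil genes passed in 0 of 3, T and NK cell genes in 0 of 6, B cell genes in 0 of 4 and mast cell genes in 0 of 4. Brown adipocyte genes rose in 5 of 6. The part of these cells in the macrophage values was not tested.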

How the data were processed

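BAT RNA was sequenced from 40 mice, 1 library per mouse. The authors used STAR (mm9) for mapping and HOMER for tag directories, and deposited raw exon counts per RefSeq gene made with iRNA-seq; versions and strandedness are not given in the sources used here. Here counts were fitted with edgeR 4.0.16 (R 4.3.3; filterByExpr, minimum count 10; TMM; glmQLFit over all 40 libraries with 1 mean per group; glmQLFTest), with Benjamini-Hochberg adjustment over 13277 genes. SE is the log2 fold change divided by the root of F. Levels are CPM. Intervals and the smallest level of 3 counts (0.206 to 3.01 CPM per library) cover counting error only. Scripts were tested on simulated data. The simulation changed only genes with mean levels above those of Msr1 and Itgax, and drew each gene independently. It therefore does not bear on the calls of rare genes. The genes, lists and tests were chosen with earlier results of these data known. In each comparison 12 genes were always given (Spi1, Csf1r, Cd68, Lyz2, Mrc1, Cd163, C1qa, Ptprc, Itgax, Trem2, Ccr2 and Ccl2), plus up to 3 per direction with the lowest adjusted p among those that passed, or the largest fold where no test was made; other members and list genes are named where they passed or, as stated, after their values were seen. Alternatives were library totals, RLE factors, other filters, fewer libraries, a replicate block, DESeq2 1.42.0 and leaving out each mouse. The values of 1 gene of another list are not reported here.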

Additional observations from a re-analysis of the deposited data

Results flagged for a closer look

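In each group of 5 mice, the summed level and the 12 genes followed throughout were searched for a mouse apart from the other 4 (gap over range above 0.71). Of 104 groups 21 held such a mouse, where chance gives about 1 in 20, or 5.2. The genes are not independent of each other, since a mouse that is high for 1 of them tends to be high for many.

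Replicate 3 of chow controls stood above the others for the sum (551 CPM), Cd68 (12.5), C1qa (50.4) and Ccr2 (14.4 CPM). Replicate 3 of chow C-3BO stood above the others for the sum (523 CPM), Cd68 (8.48), Lyz2 (104), Mrc1 (36.4), Cd163 (19.1) and C1qa (55.3 CPM). Replicate 3 of chow CL did so for the sum (738 CPM), Spi1 (8.04), Csf1r (39.1), Cd68 (11.7), Lyz2 (161), Mrc1 (48.1) and C1qa (55.3 CPM). In the other mice of these 3 groups C1qa read 19.3 to 34.9 CPM.

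Apart from these mice, Itgax in HFD saline replicate 4 was 13.03 CPM (13 counts) and Trem2 in HFD CL replicate 5 was 7.99 CPM. Ccl2 was 0.926 CPM in chow C-3BO replicate 2 and 3.78 CPM in chow saline replicate 1.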

How the results depend on the processing

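Each count of the 34 genes that passed was computed again under the other settings. The shares of all genes called under those settings are not given beside them. The counts therefore show how the calls move and are no result about the set. For CL on chow, 2 genes fell, and the count was 0 with at least 10 counts required in every library (8943 genes, 20 of the 35 tested) and 1 with only the libraries of the comparison. For C-3BO on chow, 1 gene fell, and the count was 5 with library totals, 0 with that filter, and 2 with only the comparison's libraries, with the replicate block and with DESeq2. For C-3BO on HFD, 7 genes fell, and the count was 13 with library totals, 12 with only the comparison's libraries and 0 when HFD C-3BO mice 4 and 5 were left out. For HFD in controls, 1 gene rose, and the count was 3 with library totals, 2 with only the comparison's libraries, and 0 with RLE factors, with that filter and with the replicate block, under which 1 fell. For HFD in C-3BO mice, 1 gene rose, and the count was 0 with that filter, with only the comparison's libraries and with the block. Itgax and Cd14 were not among the genes tested under that filter, which accounts for their lost calls, and elsewhere the cause was not tested. Leaving out 1 mouse gave 1 to 3 lower for CL on chow, 1 to 5 for C-3BO on chow, 1 to 12 for C-3BO on HFD, 0 to 1 lower and 0 to 3 higher for HFD in controls, and 0 to 1 higher for HFD in C-3BO mice.

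Among the 34 genes, signs turned in these settings only for values that had not passed. With library totals Cd163 was -0.0372 for C-3BO on chow, Ccl2 0.0536 for HFD in controls and Cd68 0.0434 for HFD in C-3BO mice. That scaling moved the median of all genes by -0.15 for CL on chow, -0.23 for C-3BO on chow, -0.19 for C-3BO on HFD, 0.15 for HFD in controls and 0.21 for HFD in C-3BO mice. The Itgax difference between C-3BO and CL was 0.00958 with the replicate block, and -0.45 to 0.26 with 1 mouse left out. With 1 mouse left out, log2 fold changes for CL on chow ranged for Lyz2 from -0.43 to 0.16, Mrc1 from -0.36 to 0.23, Cd163 from -0.21 to 0.34, C1qa from -0.38 to 0.0802, Ptprc from -0.42 to 0.16 and Trem2 from -0.36 to 0.21. For C-3BO on chow the ranges were -0.52 to 0.0065 for Lyz2, -0.35 to 0.0890 for Mrc1, -0.0707 to 0.30 for Cd163 and -0.80 to 0.0318 for Trem2. For HFD in controls Ccl2 ranged from -0.44 to 0.0672. For HFD in C-3BO mice Csf1r ranged from -0.0398 to 0.23, Cd68 from -0.22 to 0.0238, Cd163 from -0.35 to 0.0083 and Trem2 from -0.67 to 0.0438.

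The labels do not say what mice with the same replicate number share. Their deviations from the group means correlated by over 0.1 in at most 3 of 5 pairs. The mean was 0.216 for chow control with chow C-3BO (highest 0.539) and 0.101 for HFD control with HFD C-3BO (highest 0.230). A shared batch or pairing behind the numbers is not settled by these values. With the replicate block, the Itgax rise on HFD in C-3BO mice had an edgeR adjusted p of 0.0593. Depth limits the rare genes: 3 counts stand for 0.206 to 3.01 CPM, and Msr1, Itgax and Trem2 lay near that level in many libraries.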

Other observations

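Of 10 genes for lipid and lysosome handling, which macrophages share with adipocytes, 1 fell and 3 rose with C-3BO on HFD. With C-3BO on chow 2 fell and 2 rose, and with CL on chow 0 fell and 3 rose. Over all genes 15.5%, 15.9% and 6.13% were lower and 19.3%, 15.8% and 9.16% higher in these 3 comparisons. The counts among 10 genes are therefore no result about the list. Ctsz, a lysosomal cysteine protease, rose with C-3BO on HFD from 231 to 1119 CPM, by 2.27 on the log2 scale (SE 0.22, edgeR adjusted p = 3.01e-10), and by 2.00 without replicates 4 and 5 of HFD C-3BO. It also rose with C-3BO on chow (0.77) and with CL on chow (1.10). Lipa, lysosomal acid lipase, rose by 1.16, 0.81 and 0.83 in the same comparisons. Fabp5 rose with CL on chow (1.05, edgeR adjusted p = 4.82e-05), and Ctsd with C-3BO on HFD (0.30). Cd9 fell with C-3BO on HFD (-0.53) and on chow (-0.75), and Npc2 with C-3BO on chow (-0.39). Without replicates 4 and 5 of HFD C-3BO, the HFD calls of Ctsd (0.165, edgeR adjusted p = 0.314) and Cd9 (-0.267, adjusted p = 0.370) were lost. Ctsb, Ctsl, Lamp1 and Spp1 passed in none of the 3 comparisons.

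Il1rn, the interleukin-1 receptor antagonist, rose with C-3BO on HFD from 2.72 to 13.7 CPM (log2 fold change 2.37, SE 0.44, edgeR adjusted p = 6.34e-05), and by 2.81 without replicates 4 and 5. Tgfb1 (-0.55), Nos2 (-0.61) and Tnf (-1.60) fell there. Without replicates 4 and 5, Tgfb1 and Nos2 still passed, and Tnf did not (-1.83, edgeR adjusted p = 0.0638). Arg1, an arginase of alternatively activated macrophages and also the urea cycle enzyme of liver, rose by 3.04 (SE 0.83, edgeR adjusted p = 0.00417), and differed by -1.20 without replicates 4 and 5 (adjusted p = 0.46), the 2 libraries of that group with liver transcripts.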
